A study of Mus musculus with 6 samples.

Results

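A set of 10 macrophage genes was followed in B16 tumours, and 4 of them, Cx3cr1, Fcrls, Cd180 and Ms4a7, were lower in tumours given radiation with an immune checkpoint inhibitor than in tumours given the inhibitor alone. Trem2, Csf1r, Adgre1, Olfml3, P2ry12 and Gpr34 did not separate the treatments. The 10 genes are 10 of the 34665 rows of the count table, found by gene symbol. They were chosen by their values in this same comparison, so their differences between the treatments are a description. Calls from the fit over all genes are also counted for them, but these restate how the genes were chosen and support nothing further. A filter on low counts kept 16924 genes, among them 9 of the 10. Gpr34 did not pass it, and the 9 are not all members.

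Whole pieces of tumour formed by the mouse melanoma line B16 were sequenced in bulk, with 3 libraries in each of 2 groups. All tumours are labelled wild type (WT) and as melanoma cells, and all received an immune checkpoint inhibitor. In the group ICI (replicates 1, 2 and 3) the inhibitor was the only treatment named, and in the group RI (replicates 1, 2 and 4) radiation was given with it. No source used here gives the molecule the inhibitor blocks, the doses, the time or age at harvest, or whether the tumour that was taken had itself been irradiated. There was no untreated or radiation-only group, so nothing here separates either treatment from no treatment. The labels do not say that each library is a different mouse, and the spread between libraries may be partly technical.

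Macrophages are phagocytes that settle in tissues from embryonic precursors or arrive as blood monocytes, and tumours usually hold both. Their survival depends on the Csf1 receptor. Cx3cr1, Fcrls, P2ry12, Gpr34, Olfml3 and Trem2 are known best from microglia, the macrophages of the brain, but resident macrophages of other organs and tumour-associated macrophages express several of them. PU.1, encoded by Spi1, is the transcription factor that opens many macrophage promoters.

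The library totals ran from 22543721 to 45624013 counts, and the 10 genes together took 0.00167% to 0.00557% of each, so these are rare transcripts in tumours made mainly of melanoma cells. The 9 melanoma markers summed to between 10645 and 15873 CPM (counts scaled to library size after TMM normalisation) in every library, in accord with the labelled cell type, while macrophage and other stromal genes were present in each library as well. RI replicate 1 stood apart, with 29748 rows holding a count against 22763 to 24891 in the other libraries, and counts of calls are given with and without it. In bulk tumour RNA, fewer cells of a type and less RNA per cell cannot be told apart.

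The starts of 7 of the 10 genes were matched to RefSeq, and the 250 bases before 3 of them are shown because they put a gene whose level did not separate the groups (Trem2) beside a pair that did (Cd180 and Ms4a7). The windows are given 5′ to 3′ on the gene's strand in build GRCm38.p6, at chr13:102693297-102693546 (+) for Cd180, chr19:11336147-11336396 (-) for Ms4a7 and chr17:48346151-48346400 (+) for Trem2. Capitals mark a PU.1 core motif, GAGGAA or its reverse complement TTCCTC. The bases just after the RefSeq start of Cd180 lie outside the GENCODE transcripts of that gene.
Cd180: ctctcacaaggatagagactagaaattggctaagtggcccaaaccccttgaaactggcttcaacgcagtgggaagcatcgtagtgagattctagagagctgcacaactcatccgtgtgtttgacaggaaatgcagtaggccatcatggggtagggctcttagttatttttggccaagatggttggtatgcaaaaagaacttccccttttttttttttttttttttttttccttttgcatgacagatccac
Ms4a7: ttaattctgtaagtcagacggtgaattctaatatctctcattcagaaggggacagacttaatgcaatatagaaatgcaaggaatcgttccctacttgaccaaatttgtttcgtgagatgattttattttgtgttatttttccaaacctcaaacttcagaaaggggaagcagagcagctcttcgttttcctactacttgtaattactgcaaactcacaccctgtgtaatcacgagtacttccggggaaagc
Trem2: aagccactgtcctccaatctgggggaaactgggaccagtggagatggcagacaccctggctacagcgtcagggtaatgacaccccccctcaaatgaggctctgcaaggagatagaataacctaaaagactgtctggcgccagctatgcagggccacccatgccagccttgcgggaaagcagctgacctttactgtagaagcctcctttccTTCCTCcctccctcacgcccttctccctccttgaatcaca

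The PU.1 core was in 2 of the 7 windows, with its first base at -40 from the start of Trem2 and at -144 from that of Fcrls. It is a short motif that 23.3% of 32851 RefSeq promoters hold on either strand within the same length. A longer composite of an ETS and an IRF half-site, GGAANNGAA or TTCNNTTCC, which can overlap the core, was in 0 of the 7 windows and in 6.99% of all promoters. These are matches of letters and not measured sites, and a window without a match says nothing about the factor. Of the genes lower in RI, Fcrls held a core in its window, while none was found in those of Cx3cr1, Cd180 and Ms4a7.

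Cx3cr1, the receptor for the membrane-bound chemokine fractalkine, had one of the largest fitted differences of the 9 tested genes, beside Fcrls. Its level was 3.39, 0.629 and 1.55 CPM in ICI replicates 1, 2 and 3, and 0.248, 0.225 and 0.0933 CPM in RI replicates 1, 2 and 4. Every ICI library was above every RI library, and ICI replicate 1 was far above the other ICI tumours. The means were 1.86 ± 1.41 CPM (SD, n = 3) in ICI and 0.189 ± 0.0836 CPM (SD, n = 3) in RI, a fitted 9.32-fold difference (log2 fold change of RI over ICI -3.22, SE 0.70). The RI values rest on 7, 10 and 2 counts, against 118, 25 and 74 counts in ICI. Without ICI replicate 1 the log2 fold change was -2.48, less than the -3.16 of Fcrls in that fit. The gene lies on chromosome 9 (GRCm38, chr9:119901616-120069879, minus strand), and 1.73% of its exon bases are shared with the annotated gene Gm33858 on the other strand.

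Fcrls, a member of the Fc receptor-like family expressed in mouse macrophages and microglia, showed a difference of similar size with more counts behind it. It stood at 3.85, 2.19 and 6.50 CPM in ICI and at 0.284, 0.654 and 0.513 CPM in RI, from 134, 87 and 311 against 8, 29 and 11 counts. The groups did not overlap, and ICI replicate 2 was again the lowest of its group. Means were 4.18 ± 2.18 CPM in ICI and 0.484 ± 0.187 CPM in RI (SD, n = 3 each), a fitted 8.50-fold difference (log2 fold change -3.09, SE 0.51). Fcrls lies at chr3:87250758-87263738 on the minus strand and shares no exon bases with another annotated gene.

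Cd180 encodes a toll-like receptor relative that pairs with Ly86 on B cells, macrophages and dendritic cells. It was at 3.59, 1.69 and 2.89 CPM in ICI and at 0.887, 0.631 and 0.513 CPM in RI. Again the groups were separate, here with a narrower spread among the ICI tumours than for Cx3cr1. The means of 2.72 ± 0.964 and 0.677 ± 0.191 CPM (SD, n = 3 each) differed 3.99-fold in the fit (log2 fold change -2.0, SE 0.41). Of the B cell markers, 9 of 10 were in the table, none of these was at 0 in all libraries, and their summed level was 4.03 to 4.38 CPM in ICI and 2.19 to 4.85 CPM in RI. The 12 dendritic cell markers, none at 0 in all libraries, summed to 397, 371 and 286 CPM in ICI and 302, 114 and 207 CPM in RI. Most of each sum was Bst2 alone, at 356, 346 and 243 CPM in ICI and 271, 98.6 and 193 CPM in RI. Of the 6 dendritic cell markers tested, 5 had a log2 fold change below 0 (median -0.61). None of the 6 was called by edgeR (1 lower at an unadjusted p under 0.05), and 1 was by DESeq2. Without RI replicate 1 the homing receptor Ccr7 (log2 fold change -3.25) and the actin bundler Fscn1 (-1.84) were called lower. Ccr7 was at 1.58, 0.755 and 0.753 CPM in ICI and 0.248, 0.0225 and 0.233 CPM in RI. It passed the filter on low counts through ICI, the group where it is high. Of the 4 B cell markers tested, 0 were called by edgeR (1 lower at an unadjusted p under 0.05) and 1 by DESeq2, and the part of either cell type in the Cd180 difference was not tested. Exons of Cd180 share 4.04% of their bases with Mast4 on the opposite strand.

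Ms4a7, a membrane-spanning 4A protein of monocyte-derived and border-associated macrophages, differed least of the 4. Its ICI values were 6.76, 4.05 and 7.32 CPM and its RI values 3.01, 2.37 and 2.57 CPM. All 3 RI tumours lay below the lowest ICI tumour, which was ICI replicate 2 once more. The means of 6.04 ± 1.75 and 2.65 ± 0.332 CPM (SD, n = 3 each) differed 2.28-fold in the fit (log2 fold change -1.19, SE 0.30). The gene lies at chr19:11321039-11336146 on the minus strand, with no exon bases shared.

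**Figure D1:**
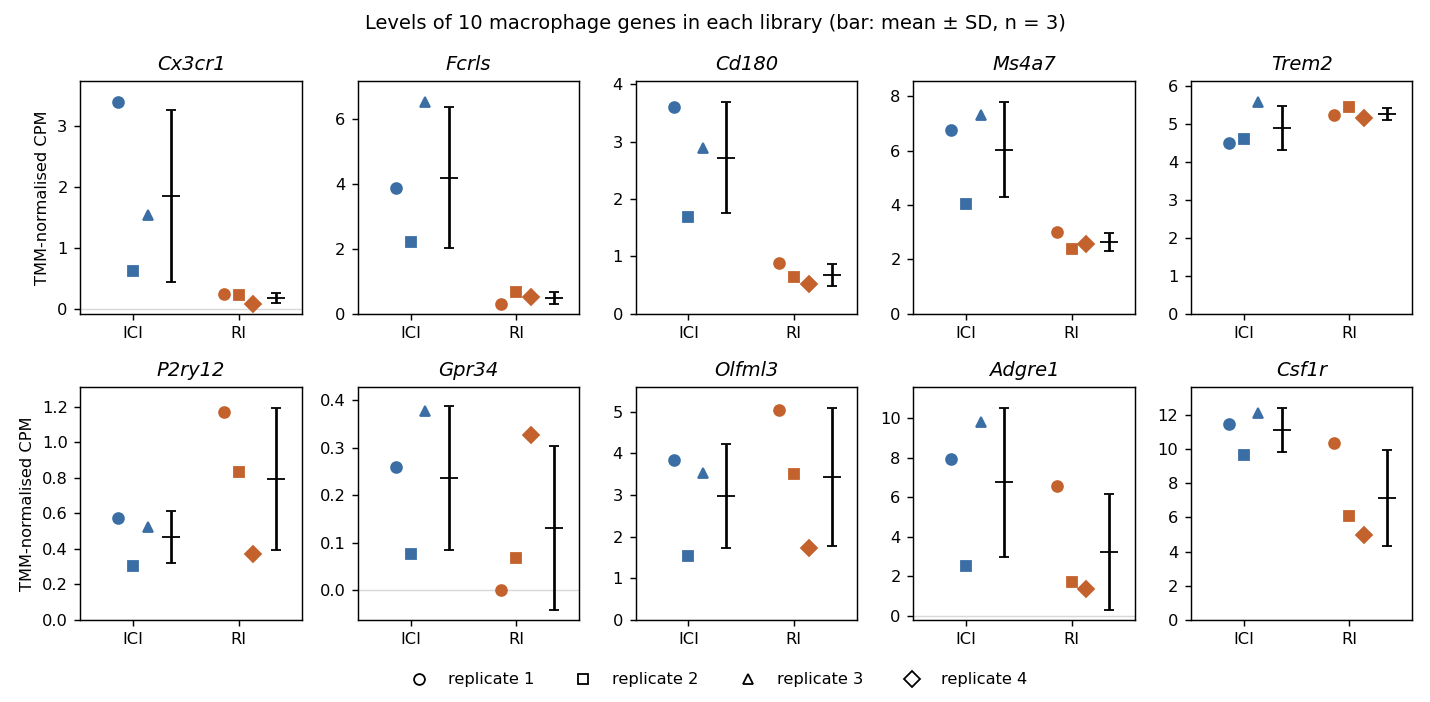
Level of each of the 10 genes in every library, in TMM-normalised CPM on linear axes, 1 panel per gene, with symbols for single libraries and bars for the group mean ± SD (n = 3). Cx3cr1, Fcrls, Cd180 and Ms4a7 have every ICI point above every RI point, while the points of the other 6 genes overlap between the groups, among them Trem2 at 4.49 to 5.56 CPM in ICI and 5.13 to 5.43 CPM in RI.

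In the fit over all 16924 genes, these 4 members were called lower in RI at an adjusted p under 0.05 (edgeR's quasi-likelihood test, Benjamini-Hochberg adjustment), 0 were called higher, 5 were tested and not called, and Gpr34 was not tested. Of all genes tested 799, or 4.72%, were called lower and 754 genes, 4.46%, higher. The same 4 members, and no other, had all RI libraries below all ICI libraries, which held for 19.4% of tested genes, while 17.8% of tested genes had all RI libraries above. None of the members did so. The median log2 fold change was -1.07 over the 9 tested members and 0.01 over all genes tested. Because the members were taken from this contrast, neither their calls nor their shares against those of the table are a test. Cx3cr1 and Fcrls also passed the filter on low counts through ICI, the group where they are high. With upper-quartile in place of TMM scaling, the split of calls over all genes moved from 754 higher and 799 lower to 1046 higher and 497 lower, the median of all genes from 0.01 to 0.10, and Ms4a7 was no longer called.

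The count of members called changed with single libraries, in fits that reuse the values the genes were chosen on. It was 4 without ICI replicate 2, 5 without RI replicate 1, and 0 without ICI replicate 1, ICI replicate 3, RI replicate 2 or RI replicate 4. Those last 4 fits called between 0 and 81 genes higher and between 0 and 16 lower over the whole table. Without ICI replicate 2 the whole-table counts were 234 higher and 291 lower of 17388 genes tested. Without RI replicate 1 they were 1564 higher and 1545 lower of 17551, more in each direction than with all 6 libraries. Over the 6 fits the log2 fold changes ran from -3.64 to -2.48 for Cx3cr1, -3.41 to -2.63 for Fcrls, -2.26 to -1.76 for Cd180 and -1.42 to -1.04 for Ms4a7. Their sign follows from the choice of genes whose groups did not overlap and is no sign of stability.

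**Figure D2:**
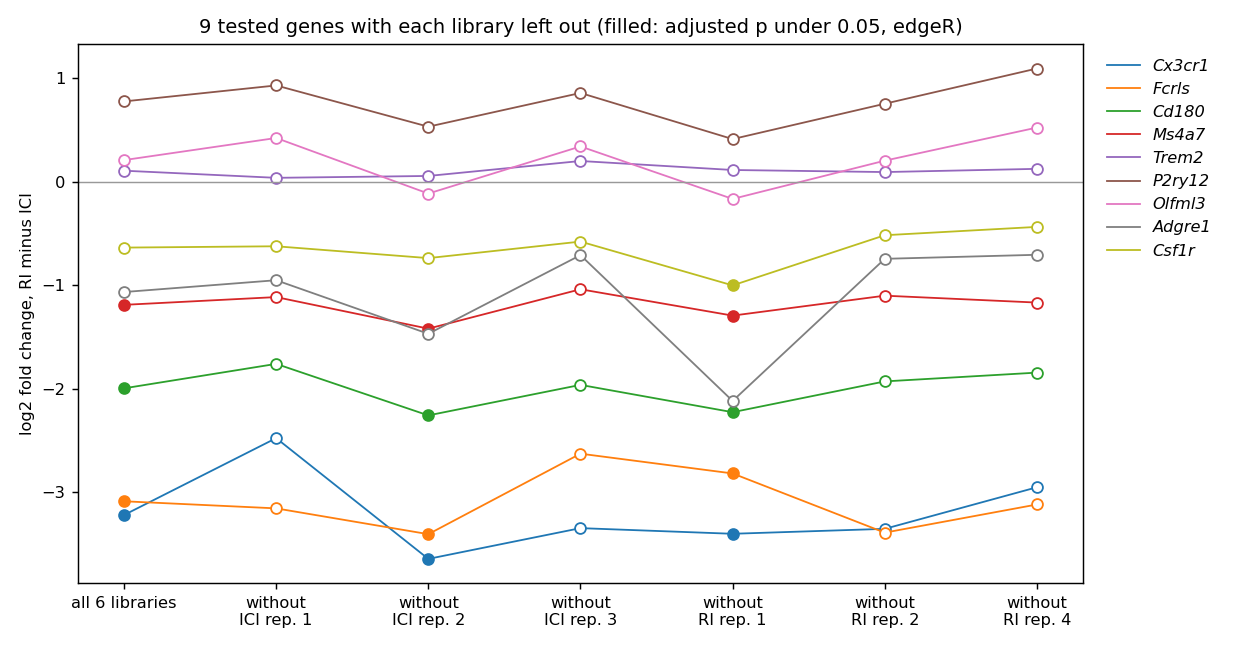
Fitted log2 fold change (RI over ICI) of each tested gene with all 6 libraries and with each library left out in turn, where lines join the values of the same gene. Cx3cr1, Fcrls, Cd180 and Ms4a7 stay below 0 throughout, Adgre1 drops from -1.07 to -2.12 and Csf1r from -0.64 to -1.0 without RI replicate 1, and Olfml3 changes sign.

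The general macrophage genes among the 10 gave a different picture. Csf1r, the receptor tyrosine kinase for Csf1 and Il34, was at 11.5, 9.66 and 12.1 CPM in ICI and at 10.4, 6.06 and 4.99 CPM in RI. RI replicate 1 lay within the ICI range and the other RI tumours below it. The means of 11.1 ± 1.29 and 7.14 ± 2.84 CPM (SD, n = 3 each) gave a log2 fold change of -0.64 (SE 0.29), which was not called. Without RI replicate 1 it was -1.0 and was called, which made 5 members lower. Csf1r lies on chromosome 18 and shares 15.1% of its exon bases with Hmgxb3 on the other strand. Whether counting used the strand is not stated, so reads from that overlap may belong to either gene.

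Adgre1, which encodes the adhesion receptor F4/80 used to recognise mouse macrophages, varied more within groups than between them. It measured 7.94, 2.54 and 9.81 CPM in ICI and 6.60, 1.74 and 1.35 CPM in RI. ICI replicate 2 and RI replicate 1 crossed over, and the means of 6.76 ± 3.77 and 3.23 ± 2.92 CPM (SD, n = 3 each) were not called different (log2 fold change -1.07, SE 0.72). Without RI replicate 1 its log2 fold change was -2.12, still not called. ICI replicate 2 was the lowest ICI library for each of the 10 genes except Trem2.

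Trem2, a lipid-sensing receptor of macrophages that signals through Tyrobp, was nearly level. The values were 4.49, 4.60 and 5.56 CPM in ICI and 5.21, 5.43 and 5.13 CPM in RI, with means of 4.88 ± 0.590 and 5.26 ± 0.154 CPM (SD, n = 3 each). The RI values all fell inside the ICI range. The log2 fold change was 0.11 (SE 0.22). For each 100 counts of Cx3cr1 there were 132, 732 and 359 counts of Trem2 in ICI and 2100, 2410 and 5500 in RI, ranges that did not overlap and that combine a level gene with a lower one.

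P2ry12, the ADP receptor that guides microglial processes, was scarce, at 0.575, 0.302 and 0.523 CPM in ICI and 1.17, 0.834 and 0.373 CPM in RI. RI replicate 4 lay within the ICI range and the other RI tumours above it, and the log2 fold change of 0.78 (SE 0.50) was not called. Gpr34, a lysophosphatidylserine receptor, had 9, 3 and 18 counts in ICI and 0, 3 and 7 in RI. That is too few to compare, and the count of 0 in RI replicate 1 allows up to 0.106 CPM at a floor of 3 counts. Olfml3, a secreted olfactomedin-domain protein made by microglia and also by stromal cells, was at 3.85, 1.53 and 3.53 CPM in ICI and 5.04, 3.52 and 1.73 CPM in RI, with overlap. Its log2 fold change of 0.21 (SE 0.47) turned to -0.11 without ICI replicate 2 and to -0.17 without RI replicate 1. The 10 fibroblast markers, none at 0 in all libraries, summed to 404, 150 and 823 CPM in ICI and 800, 535 and 417 CPM in RI, so the lowest Olfml3 value in ICI and in RI fell in the library with the lowest fibroblast sum of its group. Of these markers Thy1 was called lower without RI replicate 1 (log2 fold change -1.26). In a fit with the replicate number as a block, 5 of the fibroblast markers were called higher and 0 lower. The part of fibroblasts in the Olfml3 values was not tested.

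Counted against Csf1r within the same library, which needs no library scaling, 3 of the genes lower in RI stayed apart. Cx3cr1 gave 6.51 to 29.5 counts per 100 Csf1r counts in ICI and 1.87 to 3.72 in RI. Fcrls gave 22.7 to 53.5 in ICI and 2.74 to 10.8 in RI, and Cd180 gave 17.4 to 31.2 and 8.56 to 10.4. Ms4a7 overlapped on this scale, at 41.9 to 60.2 in ICI and 29.1 to 51.4 in RI. On the opposite side, Trem2 was at 39.0 to 47.7 per 100 Csf1r counts in ICI and 50.3 to 102.8 in RI, Olfml3 at 15.9 to 33.5 and 34.6 to 58.0, and P2ry12 at 3.12 to 5.0 and 7.48 to 13.8. For these 3 genes every RI library was above every ICI library relative to Csf1r, while their CPM overlapped, and the CPM of Csf1r itself was below every ICI value in 2 of the 3 RI tumours. Relative to Csf1r the log2 difference was -2.25 for Cx3cr1, -2.30 for Fcrls, -1.24 for Cd180, -0.44 for Ms4a7 and 0.81 for Trem2. These ranges are of point values. For each gene kept apart by them, the 95% counting intervals of some ICI and RI libraries overlapped. The share of all genes that separate on this scale was not counted. This measure was added after the data were seen.

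**Figure D3:**
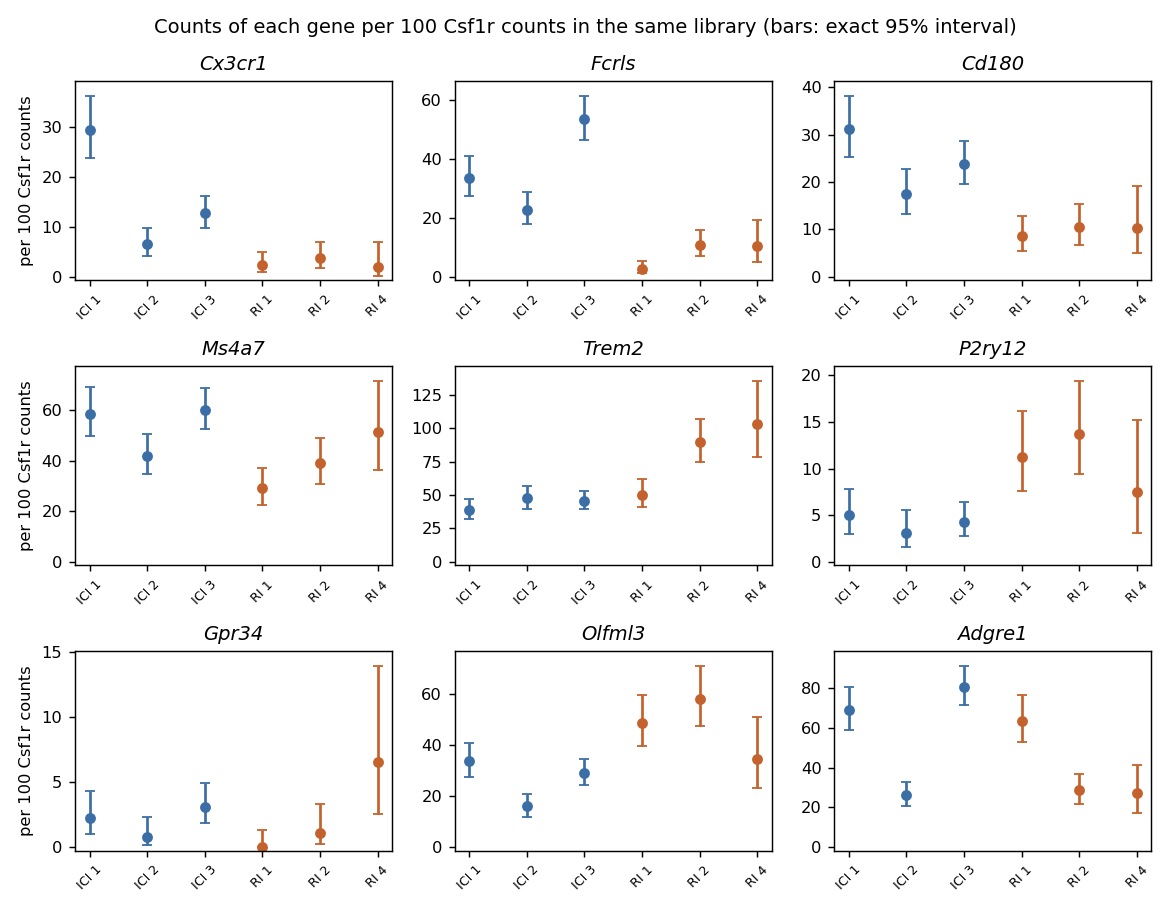
Counts of 9 members per 100 counts of Csf1r in the same library, on linear axes, with exact 95% intervals from binomial (Clopper-Pearson) bounds that cover counting error only. The points of Cx3cr1, Fcrls and Cd180 have no overlap with ICI above, and those of Trem2, P2ry12 and Olfml3 have no overlap with RI above. The points of Ms4a7, Adgre1 and Gpr34 overlap. For every gene whose points are apart, the intervals of some ICI and RI libraries overlap.

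Levels were compared between genes per kilobase of exon. In ICI the order of mean CPM per kilobase was Adgre1 (2.09), Csf1r (1.92), Fcrls (1.79), Ms4a7 (1.36), Trem2 (0.987), Cd180 (0.604), Olfml3 (0.483), Cx3cr1 (0.412), P2ry12 (0.183) and Gpr34 (0.113). Only Trem2 and Cd180, 1 of the 9 pairs of neighbours in that order, had ranges over the libraries that did not overlap. In RI the order of mean CPM per kilobase was Csf1r (1.24), Trem2 (1.06), Adgre1 (0.997), Ms4a7 (0.595), Olfml3 (0.556), P2ry12 (0.311), Fcrls (0.207), Cd180 (0.150), Gpr34 (0.0629) and Cx3cr1 (0.0420), and 0 of the 9 neighbouring pairs were separate. Fcrls stood next to Csf1r in the ICI order and next to Cd180 in the RI order, and Cx3cr1 stood above P2ry12 in ICI and last in RI. With the longest transcript as the length, the ICI order put Csf1r (2.36 CPM per kilobase) above Adgre1 and Cd180 (1.03) above Trem2 (1.02), with overlap in both pairs, and the 1 separate pair was then Trem2 and Olfml3.

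The profile of Cx3cr1 over the 6 libraries, as log2 CPM centred on its mean, was nearest to those of Oas1h and Ifi44, both interferon-induced genes, Gm26811, Apln, which encodes the peptide ligand apelin, and Ch25h, the enzyme that makes 25-hydroxycholesterol. Their root mean square differences from Cx3cr1 were 0.293, 0.506, 0.532, 0.539 and 0.570 log2 units. Oas1h was at 2.79, 0.528 and 0.941 CPM in ICI and 0.284, 0.135 and 0.0933 CPM in RI, following the high ICI replicate 1 as well as the low RI group. Of the other members, Cd180 ranked 7 among 16923 genes by the same distance, Fcrls 49, Ms4a7 223, Adgre1 258 and Csf1r 1009, whereas Olfml3, Trem2 and P2ry12 ranked 6304, 8962 and 11617. These likenesses are descriptions over 6 libraries, and the 5 nearest genes change with the measure: 0 of the 5 were shared with a ranking by Pearson correlation and 3 of the 5 with a prior count of 0.5.

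The ligands and partners of the members were followed next, in lists that leave the members out. The lists were drawn up with earlier results on these tumours known. With all 6 libraries their counts are read beside the 4.46% of genes called higher and 4.72% called lower. These shares do not hold without RI replicate 1. That fit called 1564 genes higher and 1545 lower of 17551 tested, and list counts from it are read beside those. The 25 lists also cover other cell types, such as fat and melanoma cells, and hold 263 genes of the table, not all of them tested. Over all lists 15 genes were called higher and 4 lower, and with 1 library left out the counts were 0 and 0 (ICI replicate 1), 3 and 2 (ICI replicate 2), 2 and 0 (ICI replicate 3), 12 and 17 (RI replicate 1), 0 and 0 (RI replicate 2) and 3 and 0 (RI replicate 4). Of the called genes named next, Adam10 and Tgfbr1 were not called with upper-quartile scaling. With a correction for length and GC content Lpl, Ms4a4a, Marco and Retnla kept their calls, and Adam10, Tgfbr1, Csf2ra, Cd9, Lgals3, Ms4a8a, Cd163, Pf4, Adgrg3, Adgrl2 and Nr4a1 did not. Cx3cl1, the ligand of Cx3cr1, averaged 3.71 CPM in ICI and 2.26 CPM in RI and was not called (adjusted p = 0.172, edgeR). Adam10, one of the proteases that shed it, was lower, at 150, 120 and 127 CPM in ICI and 78.8, 93.3 and 92.5 CPM in RI (log2 fold change -0.58, adjusted p = 0.0433, edgeR). It was 1 of 3 genes of this list, and Adam17, another such protease, was not called (log2 fold change -0.47).

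For Csf1r, the ligand Csf1 averaged 33.4 CPM in ICI and 21.8 CPM in RI (adjusted p = 0.0624, edgeR) and the ligand Il34 averaged 0.973 and 1.17 CPM, neither of them called. Of 9 tested ligands and signalling partners, 1 was called higher and 0 lower. The one called was Csf2ra, the alpha chain of the receptor for GM-CSF, at 6.64, 11.1 and 7.97 CPM in ICI and 11.99, 23.9 and 23.2 CPM in RI (log2 fold change 1.20, adjusted p = 0.0487, edgeR). Its highest ICI value was close to its lowest RI value.

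The Trem2 partner Tyrobp averaged 6.17 CPM in ICI and 7.42 CPM in RI and was not called. Of 15 genes of Trem2 signalling and lipid handling, 3 were called higher and 0 lower. Lpl, the lipase that frees fatty acids from lipoproteins, was at 8.40, 7.78 and 12.3 CPM in ICI and 49.3, 31.3 and 25.1 CPM in RI (log2 fold change 1.89, SE 0.29, adjusted p = 0.0260, edgeR). The tetraspanin Cd9 (log2 fold change 0.85) and the galectin Lgals3 (0.84) were the others, and Apoe, the lipid carrier, averaged 758 and 1228 CPM without being called (adjusted p = 0.0823, edgeR). Fat cells also make Lpl and melanoma cells can make Lgals3. The 8 fat cell markers, none at 0 in all libraries, summed to 0.805, 0.679 and 26.5 CPM in ICI and 79.9, 59.9 and 67.6 CPM in RI, so the groups were apart in these markers too. Muscle is another source of Lpl, and its 8 markers, none at 0 in all libraries, summed to 236, 192 and 2.99 CPM in ICI and 2682, 1179 and 20.9 CPM in RI, all 8 with a log2 fold change above 0 (median 3.78) and 0 of them called or under an unadjusted p of 0.05 in edgeR (1 called higher by DESeq2). The part of fat and muscle in the Lpl difference was not tested. The count of 3 became 1 without ICI replicate 2 or RI replicate 4, 0 without ICI replicate 1, ICI replicate 3 or RI replicate 2, and stayed at 3 without RI replicate 1.

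Of 9 tested relatives of Ms4a7 in the membrane-spanning 4A family, 2 were called higher and 0 lower (also 2 and 0 at an unadjusted p under 0.05, edgeR). Ms4a4a was at 1.84, 2.97 and 2.32 CPM in ICI and at 19.97, 12.2 and 9.19 CPM in RI (log2 fold change 2.53, SE 0.34, adjusted p = 0.0219, edgeR), and Ms4a8a averaged 0.169 ± 0.122 and 1.72 ± 1.37 CPM (SD, n = 3 each; log2 fold change 3.33). For each 100 counts of Ms4a7 there were 27.2, 73.3 and 31.7 counts of Ms4a4a in ICI and 662, 515 and 358 in RI. Ms4a7 had more counts than Ms4a4a in every ICI library and fewer in every RI library, with no correction for length. Ms4a8a passed the filter on low counts through RI, the group where it is high. Both relatives stayed called without RI replicate 1, 1 did without ICI replicate 2 or RI replicate 4, and 0 did when any of the others was left out.

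Among 13 tested genes of scavenging or activated macrophages, 4 were called higher and 0 lower by edgeR. DESeq2 called 4 genes of the list higher and 1 lower. Marco, a scavenger receptor, was at 0.345, 0.554 and 0.418 CPM in ICI and 13.7, 1.56 and 8.49 CPM in RI, and Cd163, the haemoglobin scavenger receptor, was at 0.575, 1.56 and 1.25 CPM against 6.85, 4.17 and 2.43 CPM. Their log2 fold changes were 4.16 and 1.98, with adjusted p-values of 0.0328 and 0.0467 (edgeR). Retnla, a secreted protein of alternatively activated macrophages that fat tissue also makes, had no counts in ICI replicates 1 and 2 and 0.0627 CPM in ICI replicate 3, against 0.420 to 1.06 CPM in RI. It passed the filter on low counts through RI, the group where it is high. The platelet and macrophage chemokine Pf4 was the fourth (log2 fold change 0.90). Mrc1, the mannose receptor, averaged 15.8 and 29.0 CPM and was not called. Marco, Retnla and Pf4 remained called without RI replicate 1 and Cd163 did not (log2 fold change 1.55), and 0 of the 4 were called when any other library was left out. Nos2, the inducible nitric oxide synthase, was at 3.22, 1.28 and 2.99 CPM in ICI and 1.21, 0.316 and 0.373 CPM in RI, uncalled with all 6 libraries (log2 fold change -1.99, adjusted p = 0.0721, edgeR) and called lower without RI replicate 1 (-2.86).

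The summed level of general macrophage genes overlapped between the groups. Of 20 tested general macrophage genes, 0 were called, their median log2 fold change was 0.08, and their summed level was 1414 to 1995 CPM in ICI and 1224 to 2169 CPM in RI. Most of that sum came from Ctsb and Ctsd, so it mainly follows these genes. Ctsb averaged 636 CPM in ICI and 595 CPM in RI, and Ctsd 568 and 644 CPM. At an unadjusted p under 0.05, edgeR had 1 of the 20 higher and 2 lower, and DESeq2 called 1 higher and 1 lower. Without RI replicate 1, 3 were called lower, namely the high-affinity IgG receptor Fcgr1 (log2 fold change -1.47) and the complement genes C1qb (-0.48) and C1qc (-0.56). Cd68, a lysosomal protein, averaged 20.8 and 34.0 CPM (adjusted p = 0.0583, edgeR) and C1qa, a complement component, 39.6 and 46.4 CPM, neither of them called. Of 14 macrophage transcription factors 0 were called, with Spi1 at 6.43 and 8.31 CPM and Irf8 at 9.72 and 6.89 CPM in ICI and RI on average. At an unadjusted p under 0.05 edgeR had 2 of these factors higher and 1 lower, DESeq2 called 2 higher and 1 lower, and without RI replicate 1 Irf8 (log2 fold change -1.12) and Ikzf1 (-2.38) were called lower. Among 13 tested genes of resident macrophages and microglia, 0 were higher and 2 lower. Tgfbr1, a receptor for TGF-beta, was called lower at 36.2, 36.4 and 39.5 CPM in ICI and 21.1, 26.0 and 27.1 CPM in RI (log2 fold change -0.60, adjusted p = 0.0428, edgeR). Many cell types express it. It was again called without RI replicate 1, as was the sugar transporter Slc2a5 (log2 fold change -0.51), and 0 genes of the list were called when any other library was left out.

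**Figure D4:**
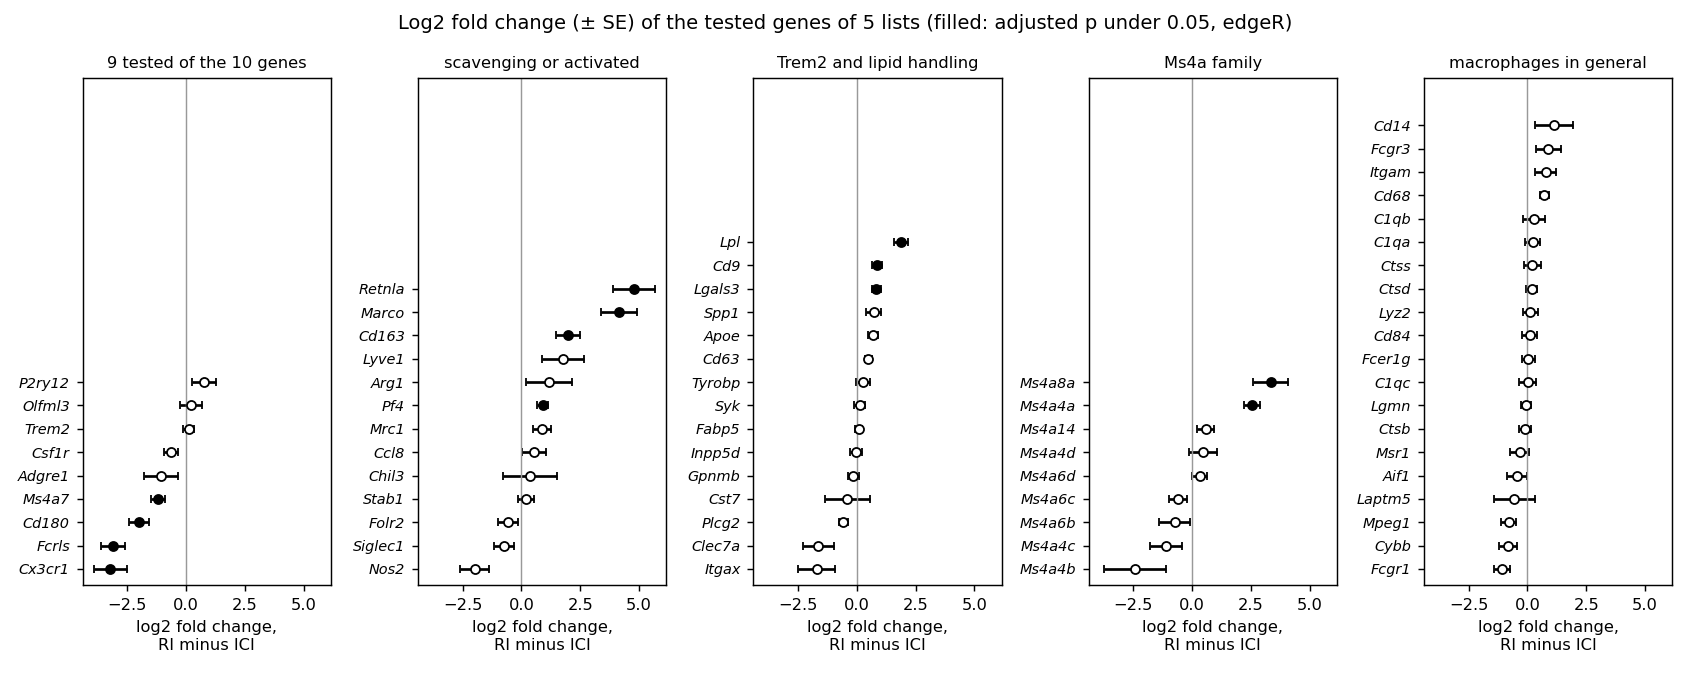
Log2 fold change (RI over ICI) of the tested genes of 5 lists, 1 point per gene with its SE, filled where the gene was called. Filled points lie below 0 for 4 of the 9 tested members and above 0 for 4 scavenging, 3 Trem2 and 2 membrane-spanning 4A genes, and none of the 20 general macrophage genes is filled. Of the filled genes, Cx3cr1 and Fcrls passed the filter on low counts through ICI, and Retnla and Ms4a8a through RI.

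The other families gave few calls. The Cd180 partner Ly86 averaged 3.01 and 2.23 CPM. It belongs to the list of toll-like receptor genes, which leaves out Cd180 itself, and of the 14 tested genes of that list 0 were called. The Fc receptors (6 tested), the P2Y and other nucleotide receptors and ectonucleotidases (11 tested) and the olfactomedin genes (5 tested) had 0 calls each. At an unadjusted p under 0.05 edgeR had 1 higher and 2 lower for the toll-like receptor list, 2 higher and 1 lower for the Fc receptors, and 1 higher and 0 lower each for the nucleotide receptor and olfactomedin lists, where DESeq2 called 1, 2, 0 and 1 genes in turn. Without RI replicate 1, Fcgr1 and Fcgr4, a receptor for IgG, were called lower among the Fc receptors, and Tlr9 in the toll-like receptor list. Tlr9 was not tested with all 6 libraries, and RI replicates 2 and 4 held no counts of it. It entered the fit without RI replicate 1 through ICI, the group where it is high (0.776, 0.126 and 0.418 CPM). Of 8 other adhesion receptors related to Adgre1, Adgrg3 was higher (log2 fold change 1.93) and Adgrl2 lower (-0.66), of which Adgrg3 was not called without RI replicate 1. Of 10 tested monocyte markers Nr4a1 alone was called by edgeR, higher in RI (75.5 and 132 CPM on average, log2 fold change 0.80). At an unadjusted p under 0.05 edgeR had 3 monocyte markers higher and 1 lower, and DESeq2 called 2 higher and 1 lower. The monocyte markers summed to 112 to 141 CPM in ICI and 151 to 288 CPM in RI, with none of the 11 at 0 in all libraries. Without Nr4a1 the sums overlapped, at 78.3, 32.0 and 34.1 CPM in ICI and 134, 41.7 and 30.3 CPM in RI, and 5 of the 10 tested markers had a log2 fold change below 0. The 11 T cell markers summed to 70.6, 24.7 and 6.04 CPM in ICI and 20.5, 2.50 and 2.29 CPM in RI, and the 8 natural killer cell markers to 58.7, 31.1 and 1.94 CPM in ICI and 28.3, 0.924 and 1.68 CPM in RI, with no marker of either list at 0 in all libraries. ICI replicate 1, the library with the highest Cx3cr1, was the highest for both, but ICI replicate 3, with more Cx3cr1 than any RI library, was below RI replicate 1. Cx3cr1 is also expressed by some T and natural killer cells, 0 of whose 10 and 5 tested markers were called or passed an unadjusted p under 0.05 in edgeR, with 0 calls from DESeq2. All 10 and all 5 had a log2 fold change below 0, with medians of -1.88 and -1.49. Without RI replicate 1 the T cell receptor chain Cd247 was called lower (log2 fold change -3.34). Cd247 was at 2.88, 1.41 and 0.439 CPM in ICI and 1.56, 0.158 and 0.140 CPM in RI replicates 1, 2 and 4. In the fit without RI replicate 1 it passed the filter on low counts through ICI, the group where it is high. The part of these cells in the Cx3cr1 difference was not tested.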

How the data were processed

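The authors deposited whole-number read counts per gene for 6 tumour libraries, in 34665 rows with Ensembl identifiers. The submitters' processing notes name HISAT2, GRCm38 and mm10. How reads were counted, with which annotation, on which strand and with which versions is not given in the sources used here. The members and the 25 lists were chosen with earlier results of these data known.

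Counts were fitted with edgeR 4.0.16 in R 4.3.3 on all 6 libraries: filterByExpr, TMM scaling, robust glmQLFit and glmQLFTest, with calls at a Benjamini-Hochberg adjusted p under 0.05 over all 16924 genes tested and no minimum fold. The script was tested on simulated data. Standard errors come from the coefficient and the F statistic. No 2 libraries agreed within sampling noise (chi-square per degree of freedom at least 40). Replicates are libraries that the labels number separately, so p-values measure only how these libraries spread. Intervals and the floor of 3 counts cover counting error only, since no molecular identifiers are named.

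Genes were named by a rule: the 10 members, 12 set companions, up to 3 called and 2 uncalled genes of each list, and the 5 genes nearest to Cx3cr1 (log2 CPM with a prior count of 2). C1qb, C1qc, Fcgr1, Fcgr4, Ikzf1, Tlr9, Nos2, Ccr7, Thy1 and Cd247 were added once their values were known. Some genes that the rule takes are not reported here. Gene positions, exon lengths and overlaps come from GENCODE M21 on GRCm38, which held 33858 of the identifiers, and promoter windows from RefSeq on GRCm38.p6. Windows of Cx3cr1, Fcrls and P2ry12 overlap annotated exons and are not printed. Alternatives tried were upper-quartile and median-of-ratios scaling, leaving out mitochondrial genes, no filter, a filter of 1 CPM in 3 libraries, DESeq2 1.42.0, limma-voom (limma 3.58.1), the replicate number as a block, a per-library correction for length and GC content, and leaving out each library.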

Additional observations from a re-analysis of the deposited data

How the results depend on the processing

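The count of members called lower in RI, 4 with the settings of the report, was 2 with limma-voom (Fcrls and Cd180), 1 with the replicate block (Fcrls), and 0 to 5 with 1 library left out. It was 3 with upper-quartile scaling, the filter of 1 CPM in 3 libraries (which left Cx3cr1, P2ry12 and Gpr34 untested) and the length and GC correction, and 4 in the other fits with all 6 libraries. Over all genes, calls higher in RI went from 754 to 1532 with DESeq2, 400 with the replicate block, 263 with the length and GC correction and 1186 with that correction without RI replicate 1, and ran from 0 to 1564 with 1 library left out. Calls lower in RI went from 799 to 497 with upper-quartile scaling, 1507 with no filter, 1559 with DESeq2, 245 with the replicate block, 356 with the length and GC correction and 1295 with that correction without RI replicate 1, and ran from 0 to 1545 with 1 library left out. Where 0 genes were called in either direction, 3701 (without ICI replicate 1) and 4107 (without RI replicate 2) had an unadjusted p under 0.05 in edgeR. Listed genes other than the members called higher in RI went from 15 to 28 with DESeq2 and 33 with the replicate block, and from 0 to 12 with 1 library left out. Those called lower went from 4 to 1 with upper-quartile scaling, 14 with DESeq2 and 10 with the replicate block, and from 0 to 17 with 1 library left out. The replicate block called 5 T cell markers lower and 7 fat cell and 7 muscle markers higher. It also called 5 fibroblast markers and 3 markers of resident macrophages and microglia higher. Of the monocyte markers it called 3 lower and 1 higher. Fcrls had a larger fall than Cx3cr1 without ICI replicate 1, without RI replicate 2 (-3.39 and -3.35) and without RI replicate 4 (-3.12 and -2.95). The same held with limma-voom (-3.00 and -2.88), with the length and GC correction (-3.16 and -3.12) and relative to Csf1r (-2.30 and -2.25).

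Some log2 fold changes that were positive and uncalled with the settings of the report turned negative. With the length and GC correction they were -0.24 for C1qa, -0.14 for C1qb, -0.41 for C1qc, -0.058 for Il34 and -0.12 for Tyrobp. With that correction without RI replicate 1, chosen after the data were seen, they were -0.67 for C1qa, -0.83 for C1qb, -0.90 for C1qc, -1.74 for Fcgr4, -0.021 for Il34, -0.050 for Olfml3, -0.35 for Spi1 and -0.45 for Tyrobp, of which C1qa, C1qb, C1qc and Fcgr4 were called lower. C1qc was at -0.0047 with DESeq2, -0.12 with limma-voom and -0.058 with no filter, and Fcgr4 at -0.54 with limma-voom and -0.27 with the replicate block. Without RI replicate 1 the values were -0.26 for C1qa, -0.48 for C1qb, -0.56 for C1qc, -1.62 for Fcgr4, -0.17 for Olfml3, -0.043 for Spi1 and -0.12 for Tyrobp, of which C1qb, C1qc and Fcgr4 were called lower. Without ICI replicate 2 they were -0.05 for C1qc, -0.12 for Il34 and -0.11 for Olfml3, and without ICI replicate 3 -0.012 for C1qc and -0.032 for Fcgr4. With 1 library left out, the highest values were 0.48 for C1qa, 0.58 for C1qb, 0.26 for C1qc, 0.69 for Fcgr4, 0.70 for Il34, 0.52 for Olfml3, 0.62 for Spi1 and 0.44 for Tyrobp. The cause was not tested.

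The libraries numbered alike share only a number: their deviations from the group means correlated at 0.353 for replicates 1 and 0.0909 for replicates 2, and replicates 3 and 4 have no partner, so the paired fit with the replicate block rests on 2 pairs. Depth limits Gpr34, and Cx3cr1 in RI, whose 3 libraries hold 2 to 10 counts each.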
